A study of Arabidopsis thaliana with 15 samples.

Results

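Transcript levels in 35S::STM-GR plants sprayed with dexamethasone (DEX) were set against those in wild-type plants given the same spray, in inflorescence meristem tissue of Arabidopsis thaliana. The comparison is between 5 of the study's 15 RNA-seq libraries, chosen by their labels, and ran over every gene in the count tables. The groups were 35S::STM-GR with DEX (n = 3, called STM-GR DEX) and wild type with DEX (n = 2, called wild type DEX). All plants were 6 weeks old, of Ler background and kept at 21 °C. STM-GR is the homeobox protein SHOOT MERISTEMLESS (STM) fused to the glucocorticoid receptor, which holds the fusion in the cytoplasm until DEX lets it into the nucleus. Its 35S promoter is active in most plant tissues, not only in the meristem cells that normally make STM. The spray held 10 µM DEX in 0.02% Silwet, a wetting agent, and tissue was taken 5 h later. Both groups received it, so spray and DEX are matched, and the groups differ in carrying the transgene. The active fusion protein and other features of the transgenic plants cannot be told apart in this comparison alone. The same transgenic plants sprayed with Silwet alone (n = 3, called STM-GR mock) are given beside the results for context. Levels and fold changes are of these groups, but all 15 libraries entered the fit that gives the spread behind each standard error and p, the others being unsprayed plants of ap1-1 (n = 3), of pAP1>>miR STM/BP ap1-1 (n = 2) and of wild type (n = 2). The labels do not say how many transgenic lines were used or whether replicates were separate plants, so p-values measure the spread between these samples.

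STM belongs to the class I KNOX homeobox family, which keeps cells of the shoot meristem undifferentiated. KNOX proteins bind DNA together with BELL homeobox partners. In Arabidopsis, class I KNOX proteins are known for raising cytokinin synthesis and lowering gibberellin synthesis, and CUP-SHAPED COTYLEDON (CUC) genes are known to act with STM at the boundary between meristem and organ. In the inflorescence, the flanks of the meristem give rise to flower meristems under LEAFY (LFY), APETALA1 (AP1) and UNUSUAL FLORAL ORGANS (UFO).

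The 5 libraries held 22063727 to 26539358 gene counts, and 21716 of 28775 genes had enough counts to be tested. Levels are in CPM, counts per 1000000 of the library size as scaled by edgeR. Log2 fold changes are STM-GR DEX minus wild type DEX, with their standard error, from edgeR's quasi-likelihood test, and a gene was called at a Benjamini-Hochberg adjusted p under 0.05. Replicates differed by 0.2995 to 0.345 in STM-GR DEX and by 0.269 in wild type DEX (root mean square of log2 CPM differences over genes). In STM-GR mock they differed by 0.267 to 0.351. STM-GR DEX and wild type DEX libraries differed from each other by 0.406 to 0.474. On the first principal component of the 8 sprayed libraries, with 41.6% of the variance, the STM-GR DEX libraries lay at -26.6, -32.2 and -33.9, the STM-GR mock libraries at 22.8, 9.77 and 20.2 and the wild type DEX libraries at 24.2 and 15.7. The STM-GR DEX libraries thus lay apart on this axis, and the other groups overlapped on it. Mock replicate 2 stood apart from the other mock libraries on the second component, at -25.9 against -10.4 and -7.08. Since this is bulk tissue, fewer cells of a type and less RNA per cell cannot be told apart in any of the values below.

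**Figure D1:**
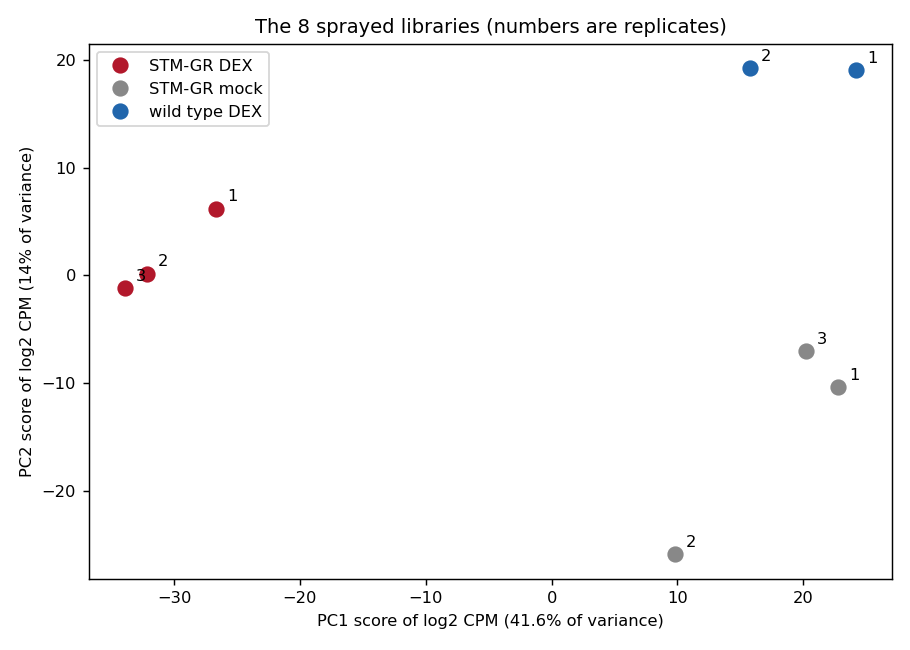
Scores of the 8 sprayed libraries on the first 2 principal components of log2 CPM, in units of the component score, with 1 point per library and its replicate number beside it. STM-GR DEX (red) lies at -26.6 to -33.9 on the first component, while STM-GR mock (grey) and wild type DEX (blue) lie at 9.77 to 24.2.

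STM itself (AT1G62360) was read first, as a check of the labels. It stood at 779, 873 and 815 CPM in STM-GR DEX, at 814, 822 and 805 CPM in STM-GR mock, and at 53.4 and 49.6 CPM in wild type DEX. Every library labelled with the transgene was far above both wild-type libraries, and the DEX and mock libraries of the transgenic plants overlapped. The log2 fold change was 4.00 ± 0.09 (edgeR adjusted p = 2.65e-12), and it counts transcripts of the transgene together with those of the plant's own gene. The tissue label was checked on meristem genes. The receptor gene CLV1 was at 75.8, 77.1 and 72.6 CPM in STM-GR DEX and at 44.5 and 54.6 CPM in wild type DEX, and the stem cell regulator WUS at 28.9, 26.5 and 23.6 against 34.3 and 35.7 CPM. Both were thus detected in every library, whereas CLV3, the peptide gene that defines the stem cells, had 0, 1 and 0 counts in STM-GR DEX and 0 in each wild type DEX library. Whether the CLV3 counts reflect its transcript level or the way reads were counted was not tested.

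In all, 1069 genes were called higher in STM-GR DEX, 4.92% of those tested, and 1286 were called lower, 5.92%. Of these, 223 were higher by at least 2-fold (1.03%) and 195 lower by at least 2-fold (0.898%). Over all genes tested the median log2 fold change was 0.0046. Counts of called list members below are to be read beside 4.92% higher and 5.92% lower, and no list was tested. For 50.5% of all genes tested the 3 STM-GR DEX and the 2 wild type DEX libraries did not overlap, so a lack of overlap in a single gene is common here. The counts depended strongly on which libraries were fitted. They were 2189 higher and 2532 lower with only the 8 sprayed libraries in the fit, and 2192 and 2394 with only the 5 libraries compared. Genes higher and lower numbered 298 and 416 when wild type DEX replicate 1 was left out, and 472 and 618 when wild type DEX replicate 2 was. They numbered 596 and 862 when STM-GR DEX replicate 2 was left out, and 719 and 852 when STM-GR DEX replicate 3 was. At 2-fold or more they were 121 and 129 without wild type DEX replicate 1. Between STM-GR mock and wild type DEX, which differ in DEX as well as in the transgene, 7 genes were called (0.0322%), 4 higher (0.0184%) and 3 lower (0.0138%), and 1295 had an unadjusted p under 0.05. That count was 28 higher and 37 lower with only the 8 sprayed libraries and 27 and 29 with DESeq2, while 0 were called lower when STM-GR mock replicate 1 or 3 or either wild type DEX library was left out. Of the 223 genes higher by at least 2-fold, the median log2 difference was 0.13 for mock minus wild type DEX and 1.21 for STM-GR DEX minus mock, and of the 195 lower ones -0.28 and -1.03, values that share libraries with the comparison that chose the genes. Mock was at least 2-fold from wild type DEX, in either direction, for 28 of the 223 and 11 of the 195. These counts share the wild type DEX libraries that chose the genes, and were not set against a count over all genes tested.

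**Figure D2:**
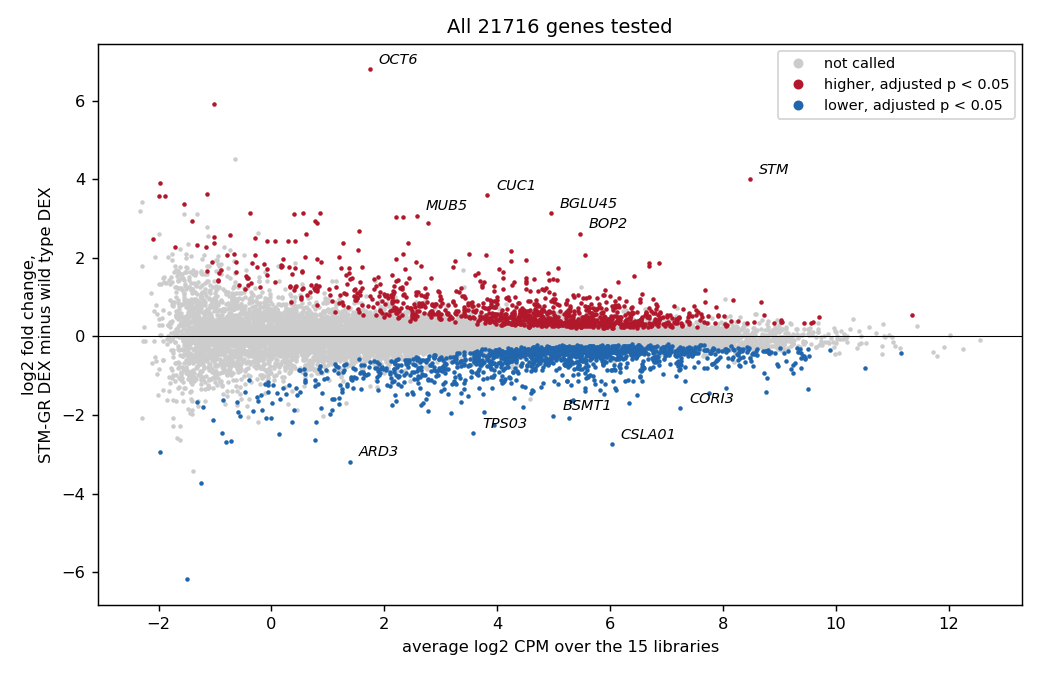
Log2 fold change of STM-GR DEX over wild type DEX (vertical axis) against average log2 CPM over the 15 libraries (horizontal axis), with 1 point for each of the 21716 genes tested. The 1069 genes called higher are red, the 1286 called lower are blue, and OCT6, STM and CUC1 lie highest among the genes named.

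The strongest rise among genes with a symbol, an average log2 CPM of at least 1 and no overlap between the groups was that of OCT6 (AT1G16370), which encodes a carrier of the organic cation transporter family. It stood at 14.0, 15.1 and 15.2 CPM in STM-GR DEX, at 0.394, 0.141 and 0.331 CPM in STM-GR mock, and at 0.137 and 0.120 CPM in wild type DEX. OCT6 was close to absent in wild type and mock, and the 3 STM-GR DEX libraries were close to each other (log2 fold change 6.79 ± 0.33, edgeR adjusted p = 1.48e-08). Its wild-type level was near the limit of detection, so the size of this fold change is less certain than its direction. Over the alternative runs it lay between 6.42 and 6.87. CUC1 (AT3G15170), a NAC transcription factor gene of organ boundaries, stood at 46.3, 52.1 and 51.9 CPM in STM-GR DEX, at 3.43, 3.94 and 3.35 CPM in STM-GR mock, and at 4.33 and 4.01 CPM in wild type DEX. The mock libraries lay just below the wild-type ones, and the log2 fold change was 3.59 ± 0.14 (edgeR adjusted p = 2.03e-09). BGLU45 (AT1G61810), a beta-glucosidase gene, stood at 113, 110 and 119 CPM in STM-GR DEX, at 8.47, 15.1 and 13.5 CPM in STM-GR mock, and at 11.8 and 14.1 CPM in wild type DEX. Mock and wild type overlapped for BGLU45, and the log2 fold change was 3.13 ± 0.26 (edgeR adjusted p = 3.23e-06). It has closely related neighbours on chromosome 1, so reads shared between copies make its level less certain.

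The 250 bases before the gene start of these 3 genes are shown because they had the strongest rises. STM was left out, since its counts include the transgene. Sequences and coordinates are those of RefSeq's TAIR10.1 assembly, each reading 5′ to 3′ on the strand of its gene (the plus strand in all 3). Capitals mark TGACAG or its reverse complement CTGTCA, the core that KNOX and BELL proteins are known to recognise, searched on both strands. OCT6 has its window at chr1:5596383-5596632, CUC1 at chr3:5109532-5109781 and BGLU45 at chr1:22829671-22829920.
OCT6: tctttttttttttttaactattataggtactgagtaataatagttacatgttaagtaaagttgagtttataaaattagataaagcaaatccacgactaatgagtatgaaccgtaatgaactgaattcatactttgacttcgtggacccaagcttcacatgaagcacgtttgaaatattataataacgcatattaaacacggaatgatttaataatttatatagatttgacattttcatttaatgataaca
CUC1: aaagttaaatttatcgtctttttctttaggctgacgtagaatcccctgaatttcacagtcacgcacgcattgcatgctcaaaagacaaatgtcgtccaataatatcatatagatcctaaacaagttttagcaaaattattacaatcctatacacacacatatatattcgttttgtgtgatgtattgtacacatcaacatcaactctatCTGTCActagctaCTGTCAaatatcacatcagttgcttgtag
BGLU45: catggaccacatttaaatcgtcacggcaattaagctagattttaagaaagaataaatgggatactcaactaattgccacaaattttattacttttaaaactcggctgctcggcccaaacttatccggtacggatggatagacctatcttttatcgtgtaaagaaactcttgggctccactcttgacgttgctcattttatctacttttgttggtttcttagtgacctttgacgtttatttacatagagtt
The CUC1 window holds 2 copies, which begin 42 and 29 bases before the gene start, and the OCT6 and BGLU45 windows hold none. Among the 10 genes with the strongest rises the BGLU7 window holds 1, which begins 14 bases before the gene start, and the other windows hold none. Over windows of this length, 5.76% of all genes tested (1243 of 21594 with a window) hold the letters, as do 10.8% of the genes higher by at least 2-fold (24 of 222) and 7.69% of those lower by at least 2-fold (15 of 195). Among all called genes the shares were 7.58% of those higher (81 of 1068) and 5.99% of those lower (77 of 1285). These are matches of letters in 1 short window and were not tested.

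The next rises were those of MUB5, SHB1, BGLU7, SRG1, BOP2 and NTM1. MUB5 (AT1G77870), which encodes a membrane-anchored ubiquitin-fold protein, stood at 11.6, 11.0 and 11.5 CPM in STM-GR DEX, at 7.21, 6.95 and 7.66 CPM in STM-GR mock, and at 1.41 and 1.28 CPM in wild type DEX. Unlike CUC1 and BGLU45 it was also high without DEX, with mock over wild type at log2 2.43 ± 0.25 (edgeR adjusted p = 8.81e-04). BOP2 (AT2G41370), which acts with its relative BOP1 at the base of lateral organs, stood at 116, 128 and 132 CPM in STM-GR DEX, at 23.6, 27.5 and 22.9 CPM in STM-GR mock, and at 19.4 and 21.5 CPM in wild type DEX. Its mock libraries lay just above the wild-type ones, and the STM-GR DEX libraries were far above both (log2 fold change 2.61 ± 0.11, edgeR adjusted p = 4.61e-09). SHB1 (3.04 ± 0.21), a gene known from seed growth and light responses, BGLU7 (2.88 ± 0.15), another beta-glucosidase gene, SRG1 (2.69 ± 0.30), an oxygenase gene known from senescence, and NTM1 (2.38 ± 0.29), a membrane-bound NAC factor gene, had edgeR adjusted p of at most 1.09e-04.

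Among genes that fell, CSLA01 (AT4G16590), a cellulose synthase-like gene of the mannan synthase family, had one of the strongest falls under the same filters. It stood at 16.5, 19.2 and 22.2 CPM in STM-GR DEX, at 72.6, 52.4 and 78.4 CPM in STM-GR mock, and at 122 and 136 CPM in wild type DEX. The 3 groups did not overlap, the mock libraries lying between the others, and the log2 fold change over wild type was -2.74 ± 0.22 (edgeR adjusted p = 2.35e-06). ARD3 (-3.19 ± 0.42), a gene of the methionine salvage cycle, fell more but was near the limit of detection, at 0.203, 0.223 and 0.0812 CPM in STM-GR DEX and at 2.23 and 1.00 CPM in wild type DEX. The next falls were those of the terpene synthase gene TPS03 (-2.46 ± 0.28) and the benzoate and salicylate methyltransferase gene BSMT1 (-2.02 ± 0.19). BSMT1 (AT3G11480) stood at 10.3, 9.64 and 12.7 CPM in STM-GR DEX, at 40.7, 29.9 and 42.8 CPM in STM-GR mock, and at 41.1 and 47.0 CPM in wild type DEX. For BSMT1 the mock and wild-type libraries overlapped and the STM-GR DEX libraries lay below them all. The others of the 10 strongest falls were MYB82 (-1.97 ± 0.26), a MYB gene known from trichomes, CORI3 (-1.83 ± 0.15), a jasmonate-responsive gene, the laccase gene LAC1 (-1.74 ± 0.21), the receptor-like kinase gene CRK22 (-1.74 ± 0.22), the Aux/IAA gene IAA32 (-1.70 ± 0.17) and RXF26 (-1.70 ± 0.15). All 10 had edgeR adjusted p of at most 2.28e-04, and all 20 strongest rises and falls kept their call under every alternative run.

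**Figure D3:**
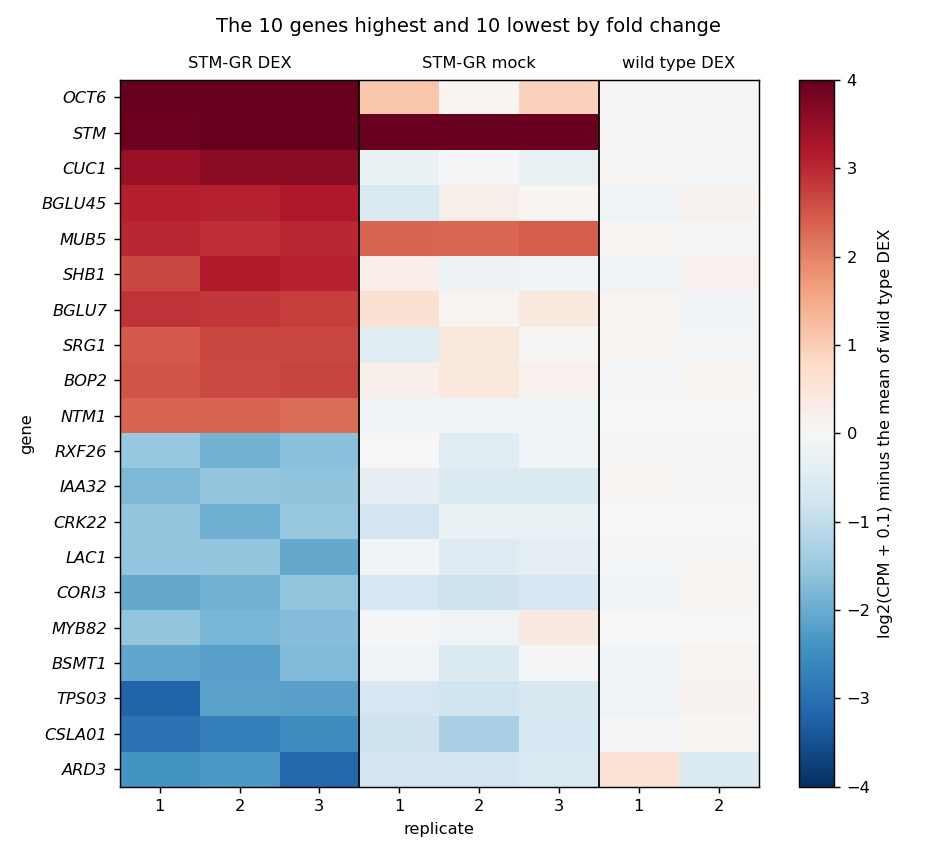
Level of the 10 genes with the strongest rises and the 10 with the strongest falls (rows) in each of the 8 sprayed libraries (columns), as log2(CPM + 0.1) minus the mean of wild type DEX, with colours capped at 4 either way. STM and MUB5 are high in the mock libraries too, while CUC1, BOP2 and BGLU45 are near the wild-type level there and high in the 3 STM-GR DEX libraries.

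Apart from STM, whose counts include the transgene, 2 of 3 class I KNOX genes rose, KNAT1 and KNAT2, with a median log2 fold change of 0.76 over the 3. KNAT1 (AT4G08150, also called BREVIPEDICELLUS), which shapes the inflorescence stem, stood at 64.0, 72.0 and 58.8 CPM in STM-GR DEX, at 40.9, 43.8 and 37.7 CPM in STM-GR mock, and at 40.0 and 36.5 CPM in wild type DEX. Its log2 fold change was 0.76 ± 0.14 (edgeR adjusted p = 0.00328), and the call was lost without wild type DEX replicate 2 (edgeR adjusted p = 0.0610). KNAT2 (AT1G70510), a class I gene of meristem and carpel, stood at 27.4, 32.0 and 30.6 CPM in STM-GR DEX, at 12.8, 14.0 and 11.7 CPM in STM-GR mock, and at 12.0 and 13.9 CPM in wild type DEX. For both genes mock and wild type overlapped, and for KNAT2 the log2 fold change was 1.21 ± 0.12 (edgeR adjusted p = 1.49e-05). KNAT6, which acts with STM at boundaries, was not called (0.34 ± 0.12, edgeR adjusted p = 0.0861). In class II, whose genes act in differentiated organs, 2 of 4 rose (median 0.25), KNAT4 (0.91 ± 0.09) and KNAT5 (0.39 ± 0.08), while KNAT3 (0.12 ± 0.09) and KNAT7 (-0.35 ± 0.19) were not called. KNAT5 lost the call without wild type DEX replicate 2 (edgeR adjusted p = 0.134), which left 1 of 4.

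BELL genes, which encode the DNA-binding partners of KNOX proteins, went both ways, with 4 of 12 higher and 2 lower (median 0.11). BLH5 (AT2G27220) stood at 8.60, 9.75 and 8.81 CPM in STM-GR DEX, at 2.32, 2.39 and 2.73 CPM in STM-GR mock, and at 2.78 and 3.93 CPM in wild type DEX. It was the BELL gene with the largest rise (1.42 ± 0.18, edgeR adjusted p = 1.42e-04). BLH6 (-1.02 ± 0.13, edgeR adjusted p = 1.80e-04), known from secondary wall formation with KNAT7, fell. ATH1 (0.64 ± 0.09, edgeR adjusted p = 3.90e-04), a partner of STM in meristems, rose in STM-GR DEX, whose libraries were at 54.2, 56.0 and 65.7 CPM, with mock at 48.0, 47.6 and 46.0 CPM and wild type DEX at 35.7 and 39.7 CPM. The inflorescence partner PNF rose too (0.64 ± 0.14), but lost the call without wild type DEX replicate 1 or 2 (edgeR adjusted p = 0.0781 and 0.114). Its relative BLR (0.12 ± 0.09), also called PENNYWISE, was not called. Without wild type DEX replicate 1 or 2 the BELL genes called higher numbered 2, and leaving out any 1 of the 5 libraries left 1 called lower.

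Organ boundary genes held some of the largest differences, although 4 of 14 were higher and 1 lower, with a median of 0.13. Besides CUC1 and BOP2, described above, BOP1 rose (0.97 ± 0.17, edgeR adjusted p = 0.00198). BOP1 stood at 6.57, 6.85 and 7.75 CPM in STM-GR DEX, at 3.66, 4.08 and 3.19 CPM in STM-GR mock, and at 3.69 and 3.49 CPM in wild type DEX. The other CUC genes did not share the rise of CUC1. CUC2 (AT5G53950) was lower, at 4.91, 4.76 and 5.88 CPM in STM-GR DEX, 6.54, 7.42 and 6.09 CPM in STM-GR mock and 7.71 and 7.82 CPM in wild type DEX (-0.58 ± 0.12, edgeR adjusted p = 0.00771). That call was lost without wild type DEX replicate 1 or 2 (edgeR adjusted p = 0.0616 and 0.0581), and CUC3 (-0.40 ± 0.20) was not called. LSH3, a boundary gene downstream of CUC1 in Arabidopsis, rose (0.64 ± 0.16, edgeR adjusted p = 0.0214) but not without STM-GR DEX replicate 2 or wild type DEX replicate 1 or 2 (edgeR adjusted p = 0.0963, 0.234 and 0.0893), and LSH4 (0.42 ± 0.20) was not called.

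**Figure D4:**
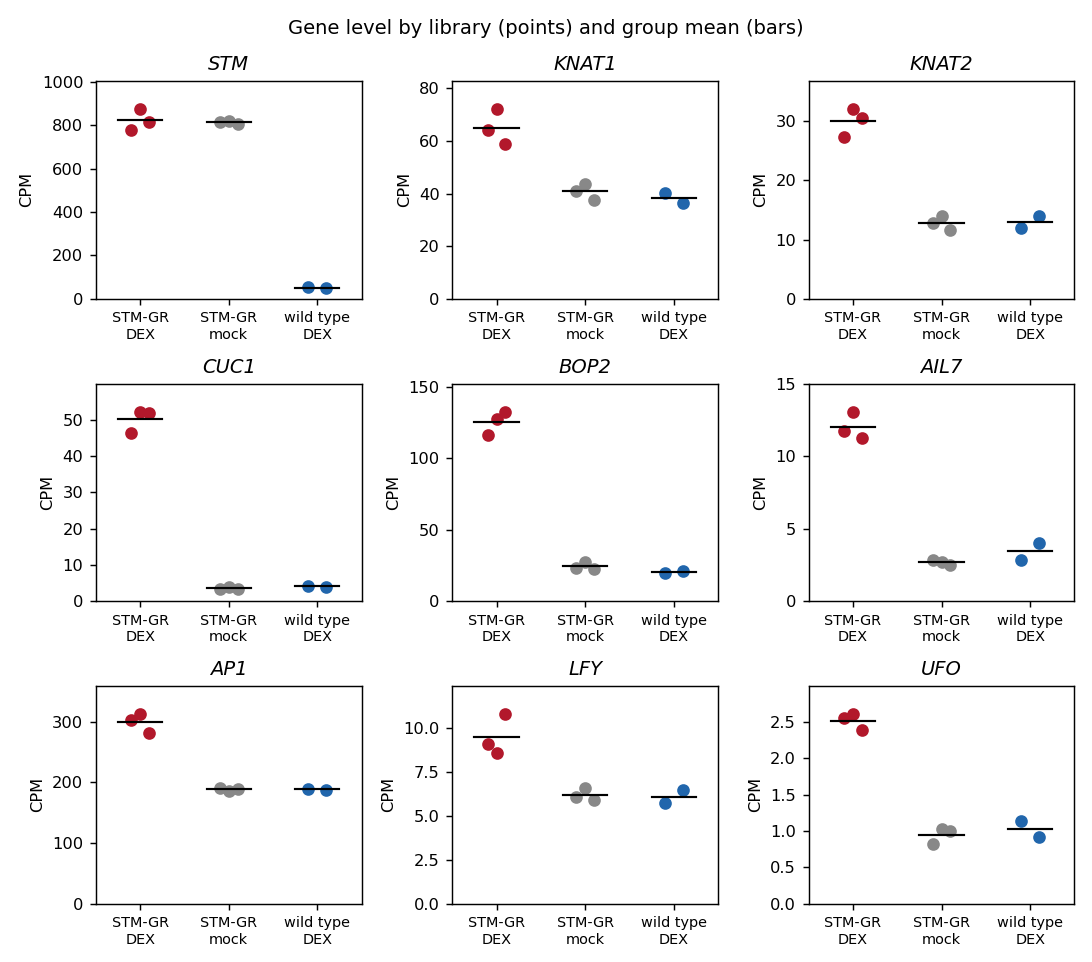
CPM of 9 genes (panels) in each library of STM-GR DEX, STM-GR mock and wild type DEX, with points for libraries and bars for group means. STM is high in both transgenic groups, whereas for KNAT2, CUC1, AIL7, AP1 and UFO the mock libraries lie near the wild-type ones and the STM-GR DEX libraries lie above both.

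Of the AINTEGUMENTA-like genes, AP2-type regulators of meristem growth and flower initiation, 2 of 4 rose (median 0.42). AIL7 (AT5G65510) stood at 11.8, 13.1 and 11.2 CPM in STM-GR DEX, at 2.84, 2.68 and 2.53 CPM in STM-GR mock, and at 2.87 and 4.01 CPM in wild type DEX (1.80 ± 0.21, edgeR adjusted p = 7.64e-05). AIL6 (AT5G10510) stood at 20.7, 22.5 and 22.9 CPM in STM-GR DEX, at 12.2, 12.7 and 11.7 CPM in STM-GR mock, and at 11.4 and 12.0 CPM in wild type DEX (0.91 ± 0.12, edgeR adjusted p = 2.05e-04). STM-GR DEX lay above the other groups for both, and ANT (-0.10 ± 0.09), the founding member, and AIL5 (-0.07 ± 0.12) were not called. In the stem cell list 2 of 11 rose and 3 fell (median -0.18). BAM2 (-0.75 ± 0.11, edgeR adjusted p = 6.89e-04), a receptor kinase gene related to CLV1, kept its call in every alternative. CLV1 (0.60 ± 0.10), HAM3 (0.66 ± 0.13), WUS (-0.41 ± 0.11) and HAM2 (-0.25 ± 0.07) were called, but none of them without wild type DEX replicate 1, with edgeR adjusted p of 0.0631, 0.0568, 0.123 and 0.165 in that order. WUS and HAM2 also lost the call without wild type DEX replicate 2 (0.147 and 0.193, edgeR adjusted p) and without STM-GR DEX replicate 2 (0.0610 and 0.0514) or 3 (0.0921 and 0.0833), and HAM2 without STM-GR DEX replicate 1 (0.116).

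Genes that give flower meristems their identity were mostly higher, with 4 of 7 called higher and 1 lower, and a median of 0.53. AP1 (AT1G69120), which is expressed in young flower meristems, stood at 303, 312 and 282 CPM in STM-GR DEX, at 191, 186 and 190 CPM in STM-GR mock, and at 190 and 188 CPM in wild type DEX. Mock and wild type overlapped, and all STM-GR DEX libraries lay above (0.66 ± 0.07, edgeR adjusted p = 2.73e-05). UFO (AT1G30950), an F-box gene that acts with LFY, stood at 2.56, 2.60 and 2.39 CPM in STM-GR DEX, at 0.827, 1.03 and 0.994 CPM in STM-GR mock, and at 1.14 and 0.923 CPM in wild type DEX (1.29 ± 0.24, edgeR adjusted p = 0.00334). LFY (AT5G61850) stood at 9.13, 8.59 and 10.8 CPM in STM-GR DEX, at 6.11, 6.62 and 5.92 CPM in STM-GR mock, and at 5.75 and 6.46 CPM in wild type DEX (0.64 ± 0.15, edgeR adjusted p = 0.0137). STM-GR DEX did not overlap the other groups for UFO or LFY, but the calls rested on few libraries. UFO lost its call without wild type DEX replicate 2 (edgeR adjusted p = 0.0665), and LFY without STM-GR DEX replicate 3 or wild type DEX replicate 1 or 2 (edgeR adjusted p = 0.0600, 0.183 and 0.0606). MYB17 (0.53 ± 0.09, edgeR adjusted p = 0.00202), a target of LFY, rose and kept its call. LMI1 (-0.72 ± 0.21, edgeR adjusted p = 0.0371), another target of LFY, was the member that fell, and it lost its call when STM-GR DEX replicate 1 or 2 was left out, or wild type DEX replicate 1 or 2 (edgeR adjusted p of 0.0598 to 0.325). CAL (0.10 ± 0.18), the close relative of AP1, was not called. Without wild type DEX replicate 2 the list had 2 members higher.

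Genes of floral organ identity, of flowering time and of the carpel and ovule were mostly not called. Of 12 floral organ identity genes none rose and 2 fell (median -0.04), AP2 (-0.84 ± 0.13, edgeR adjusted p = 7.99e-04) and SEP3 (-0.44 ± 0.11, edgeR adjusted p = 0.0234). AP2 (AT4G36920), which acts in sepals and petals and in the meristem, stood at 27.9, 28.2 and 32.7 CPM in STM-GR DEX, at 46.1, 43.7 and 46.5 CPM in STM-GR mock, and at 45.7 and 59.8 CPM in wild type DEX. SEP3 lost its call when STM-GR DEX replicate 2 or 3 was left out, or wild type DEX replicate 1 or 2 (edgeR adjusted p of 0.0534 to 0.133), which left 1 of 12. AP3 (-0.17 ± 0.11), PI (-0.03 ± 0.07) and AG (0.21 ± 0.09), genes of petals, stamens and carpels, were not called. Of 12 inflorescence and flowering time genes, among them TFL1 (-0.35 ± 0.35), SOC1 (0.13 ± 0.09) and SVP (-0.28 ± 0.15), 0 were called by edgeR, and 2 had an unadjusted p under 0.05 (median -0.05). In the carpel and ovule list 2 of 12 rose (median -0.06), ALC (0.41 ± 0.09) and SPT (0.30 ± 0.08), related bHLH genes of the carpel margin. Neither was called without wild type DEX replicate 1 (edgeR adjusted p = 0.169 for ALC and 0.211 for SPT), and SPT was not called without STM-GR DEX replicate 1 or 3 or wild type DEX replicate 2 either (0.0668, 0.0666 and 0.0875, edgeR adjusted p).

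Genes that set the upper and lower sides of lateral organs moved in both directions, with 4 of 16 higher and 5 lower (median -0.05). KAN (AT5G16560, also called KANADI1), a gene of the lower side, stood at 58.8, 68.0 and 64.0 CPM in STM-GR DEX, at 22.2, 23.0 and 20.9 CPM in STM-GR mock, and at 20.8 and 20.9 CPM in wild type DEX (1.61 ± 0.13, edgeR adjusted p = 3.59e-06). AS1 (AT2G37630), which represses KNOX genes in leaves, stood at 133, 133 and 139 CPM in STM-GR DEX, at 86.2, 85.3 and 87.7 CPM in STM-GR mock, and at 68.4 and 72.4 CPM in wild type DEX (0.94 ± 0.08, edgeR adjusted p = 2.39e-06). For KAN the mock libraries lay at or just above the wild-type level, and for AS1 they lay between the other groups. The class III homeodomain-leucine zipper genes of the upper side did not move as 1 group. REV rose (0.49 ± 0.08, edgeR adjusted p = 0.00106), while HB-8 (-0.47 ± 0.08, edgeR adjusted p = 0.00123), PHV (-0.34 ± 0.07, edgeR adjusted p = 0.00739) and PHB (-0.21 ± 0.06, edgeR adjusted p = 0.0427) fell, and ATHB-15 (-0.03 ± 0.07) was not called. PHV lost its call without wild type DEX replicate 1 or 2 (edgeR adjusted p = 0.0521 and 0.0689), and PHB without any 1 of the 5 libraries (edgeR adjusted p of 0.0727 to 0.187). Of the YABBY genes of the lower side, YAB3 fell (-0.60 ± 0.08, edgeR adjusted p = 3.28e-04), as did YAB5 (-0.72 ± 0.15, edgeR adjusted p = 0.00786), while YAB2 rose (0.36 ± 0.08, edgeR adjusted p = 0.0110). YAB5 was not called without wild type DEX replicate 1 or 2 (edgeR adjusted p = 0.0597 and 0.0646), nor YAB2 without STM-GR DEX replicate 2 or wild type DEX replicate 1 (edgeR adjusted p = 0.0577 and 0.231). The YABBY gene AFO (-0.35 ± 0.15) was not called, and AS2 (0.13 ± 0.17), the partner of AS1, was not called. Lower members numbered 2 without wild type DEX replicate 1 and 2 without wild type DEX replicate 2. Of 11 TCP genes, which regulate organ and branch growth, 2 were lower (median -0.20). TCP10 (-0.74 ± 0.11, edgeR adjusted p = 6.67e-04) kept its call. TCP17 (-0.77 ± 0.22, edgeR adjusted p = 0.0372) lost its call without STM-GR DEX replicate 1 or 2 (edgeR adjusted p = 0.104 and 0.101). It also lost the call without wild type DEX replicate 1 or 2, with DESeq2, with limma-voom and with only the 5 libraries compared.

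**Figure D5:**
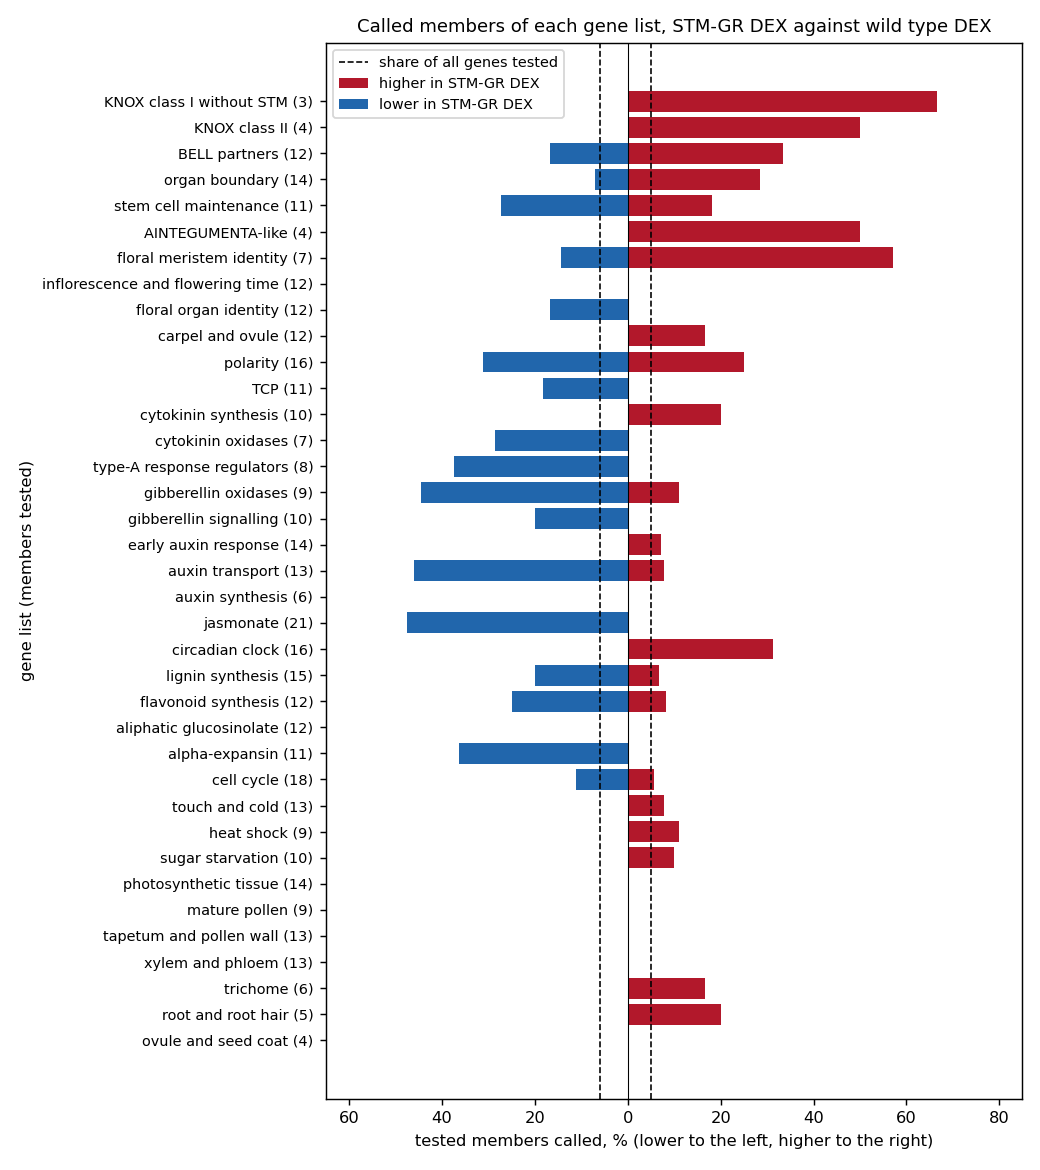
Share of the tested members of each gene list that was called higher (red, to the right) or lower (blue, to the left) in STM-GR DEX, in percent, with the number tested in brackets. Dashed lines mark the shares over all genes tested, 4.92% higher and 5.92% lower, and the class I KNOX genes other than STM and the floral meristem identity list reach furthest to the right while the jasmonate and auxin transport lists reach furthest to the left.

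Cytokinin genes were spread over synthesis, breakdown and response. Of 10 tested synthesis genes 2 were higher (median 0.11), LOG5 (0.92 ± 0.16, edgeR adjusted p = 0.00193) and LOG8 (0.57 ± 0.11, edgeR adjusted p = 0.00362), which encode enzymes of the last activating step, and neither was called without wild type DEX replicate 1 (edgeR adjusted p = 0.0612 and 0.0761). IPT7, a synthesis gene known as a target of KNOX proteins in Arabidopsis, had too few counts to be tested, with 4, 8 and 1 counts in STM-GR DEX, 2, 3 and 0 in STM-GR mock and 0 in each wild type DEX library. Of the 7 cytokinin oxidase genes, whose enzymes break the hormone down, CKX3 and CKX5 fell (median -0.13). CKX3 (AT5G56970) stood at 7.39, 6.40 and 7.39 CPM in STM-GR DEX, at 16.6, 18.5 and 17.4 CPM in STM-GR mock, and at 16.7 and 18.1 CPM in wild type DEX (-1.30 ± 0.14, edgeR adjusted p = 2.47e-05). CKX5 (AT1G75450) stood at 11.4, 10.9 and 11.8 CPM in STM-GR DEX, at 19.9, 20.5 and 21.2 CPM in STM-GR mock, and at 18.7 and 18.5 CPM in wild type DEX (-0.71 ± 0.09, edgeR adjusted p = 1.16e-04). Both genes were lower in every STM-GR DEX library than in any other sprayed library. Of 8 type-A response regulators, which cytokinin induces, ARR4 (-0.62 ± 0.12), ARR5 (-0.80 ± 0.22) and ARR6 (-0.75 ± 0.13) were lower (median -0.27). None of the 3 was called without wild type DEX replicate 1 (edgeR adjusted p = 0.0580, 0.416 and 0.0563), and ARR5 was not called without STM-GR DEX replicate 2 or 3 either (edgeR adjusted p = 0.0619 and 0.105).

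Gibberellin oxidase genes were lower more often than higher, with 4 of 9 lower, 1 higher and a median of -0.46. GA2OX1 (AT1G78440), whose enzyme inactivates gibberellin, stood at 8.44, 7.81 and 5.84 CPM in STM-GR DEX, at 17.2, 21.1 and 19.5 CPM in STM-GR mock, and at 16.2 and 13.9 CPM in wild type DEX (-1.03 ± 0.15, edgeR adjusted p = 4.71e-04). GA20OX1 (AT4G25420), which makes gibberellin precursors, stood at 2.64, 3.09 and 3.08 CPM in STM-GR DEX, at 7.33, 6.24 and 5.46 CPM in STM-GR mock, and at 5.38 and 5.33 CPM in wild type DEX (-0.87 ± 0.23, edgeR adjusted p = 0.0256). Both lay below the other groups in every STM-GR DEX library, but the GA20OX1 call was lost without any 1 of the 5 libraries (edgeR adjusted p of 0.0573 to 0.153). GA2OX2 (-0.46 ± 0.10, edgeR adjusted p = 0.0103), also of inactivation, fell except without wild type DEX replicate 2 (edgeR adjusted p = 0.113). GA2OX4 (1.01 ± 0.27, edgeR adjusted p = 0.0248) was the member that rose, and its call was lost without STM-GR DEX replicate 2 or 3 or wild type DEX replicate 1 or 2 (edgeR adjusted p of 0.0524 to 0.266). Lower members numbered 1 when wild type DEX replicate 2 was left out, and 2 when wild type DEX replicate 1 or STM-GR DEX replicate 1 or 2 was. In gibberellin signalling 2 of 10 fell (median -0.10), the DELLA repressor gene RGL2 (-0.58 ± 0.08, edgeR adjusted p = 1.94e-04) and the gibberellin-responsive GASA4 (-0.61 ± 0.12, edgeR adjusted p = 0.00479), the second not without wild type DEX replicate 1 (edgeR adjusted p = 0.0758).

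Auxin transport genes were lower more often than higher, with 6 of 13 lower, 1 higher and a median of -0.27. LAX2 (AT2G21050), an uptake carrier, stood at 24.7, 24.6 and 23.3 CPM in STM-GR DEX, at 44.4, 38.9 and 46.5 CPM in STM-GR mock, and at 46.2 and 41.4 CPM in wild type DEX (-0.86 ± 0.09, edgeR adjusted p = 2.09e-05). Mock and wild type overlapped for LAX2, and the STM-GR DEX libraries lay below. ABCB1 (AT2G36910), an export carrier, stood at 674, 707 and 621 CPM in STM-GR DEX, at 380, 386 and 373 CPM in STM-GR mock, and at 367 and 354 CPM in wild type DEX (0.89 ± 0.09, edgeR adjusted p = 1.41e-05). Also called lower were PIN4 (-0.48 ± 0.11), LAX3 (-0.46 ± 0.14), ABCB19 (-0.32 ± 0.09) and AUX1 (-0.27 ± 0.07), and PIN3 (-0.26 ± 0.12) and PIN7 (0.06 ± 0.07) were not called. These 4 were not called without wild type DEX replicate 1 or 2 (edgeR adjusted p of 0.0855 to 0.266), which left 2 lower members. Without STM-GR DEX replicate 1 or 3 LAX3, ABCB19 and AUX1 were not called (edgeR adjusted p of 0.0649 to 0.162), which left 3, and ABCB19 was not called without STM-GR DEX replicate 2 either (edgeR adjusted p = 0.0684). Of 14 early auxin response genes GH3.5 (0.78 ± 0.19, edgeR adjusted p = 0.0155), whose enzyme conjugates auxin to amino acids, was called higher, and not without wild type DEX replicate 1 or 2 (edgeR adjusted p = 0.199 and 0.0717). Of 6 auxin synthesis genes 0 were called by edgeR and 2 had an unadjusted p under 0.05 (median -0.05).

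Of the lists examined, the jasmonate list, which was also the longest, had the largest number of called members, with 10 of 21 lower, none higher and a median of -0.41. The defence and flower hormone jasmonate induces the JAZ genes, which encode repressors of its own response, and 6 of the 10 lower members were JAZ genes. JAZ10 (AT5G13220) stood at 20.6, 27.3 and 26.3 CPM in STM-GR DEX, at 49.7, 45.6 and 52.9 CPM in STM-GR mock, and at 52.4 and 56.4 CPM in wild type DEX (-1.14 ± 0.14, edgeR adjusted p = 1.02e-04). JAZ3 (-0.65 ± 0.11, edgeR adjusted p = 0.00199) fell as well, and both kept their calls in every alternative. The other lower JAZ genes were JAZ1 (-0.73 ± 0.18), JAZ2 (-0.38 ± 0.10), JAZ5 (-0.60 ± 0.17) and JAZ6 (-0.50 ± 0.14). None of these was called without STM-GR DEX replicate 1 (edgeR adjusted p of 0.0540 to 0.0966). JAZ7 (-0.72 ± 0.32), JAZ8 (-0.42 ± 0.27), JAZ9 (0.0049 ± 0.15) and JAZ12 (0.25 ± 0.08) were not called. Among enzymes of jasmonate synthesis, LOX2 (AT3G45140) stood at 902, 886 and 1032 CPM in STM-GR DEX, at 1325, 1153 and 1450 CPM in STM-GR mock, and at 1583 and 1716 CPM in wild type DEX (-0.81 ± 0.14, edgeR adjusted p = 0.00201). Mock lay between the other groups for LOX2. LOX4 (-0.74 ± 0.15, edgeR adjusted p = 0.00513) and OPR3 (-0.41 ± 0.09, edgeR adjusted p = 0.0102) fell, except without wild type DEX replicate 2 (edgeR adjusted p = 0.0795 and 0.140). AOC2 (-1.22 ± 0.28) fell too, but has near-identical copies in AOC1 (-0.02 ± 0.31) and AOC3 (-0.14 ± 0.20), so its reads are less certain, and it was not called without wild type DEX replicate 2 (edgeR adjusted p = 0.178). AOS (-0.11 ± 0.10), the enzyme that commits the pathway to jasmonate, the transcription factor gene MYC2 (-0.09 ± 0.17) and the storage protein genes VSP1 (-0.40 ± 0.20) and VSP2 (-0.31 ± 0.24) were not called. Lower members numbered 3 without wild type DEX replicate 2, 6 without wild type DEX replicate 1 and 6 without STM-GR DEX replicate 1.

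In the circadian clock list 5 of 16 genes were higher and none lower (median 0.25). RVE1 (AT5G17300), a MYB-like gene that links the clock to auxin, stood at 55.6, 55.1 and 49.7 CPM in STM-GR DEX, at 27.1, 25.8 and 23.2 CPM in STM-GR mock, and at 18.9 and 19.3 CPM in wild type DEX (1.48 ± 0.20, edgeR adjusted p = 2.28e-04). Its mock libraries lay above the wild-type ones and far below STM-GR DEX. RVE8 (0.93 ± 0.16), PRR9 (1.07 ± 0.22), CCA1 (0.53 ± 0.13) and ZTL (0.28 ± 0.06) were the other 4, and none of these was called without wild type DEX replicate 1 (edgeR adjusted p = 0.0669, 0.131, 0.294 and 0.131), which left 1. CCA1 also lost its call without STM-GR DEX replicate 2 or 3 (edgeR adjusted p = 0.0675 and 0.0629), and ZTL without wild type DEX replicate 2 (edgeR adjusted p = 0.0792). LHY (0.31 ± 0.17), the partner of CCA1, TOC1 (0.27 ± 0.12), PRR5 (-0.06 ± 0.08), FKF1 (-0.10 ± 0.08) and GI (-0.01 ± 0.09) were not called.

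Genes of growth and of secondary metabolism were mostly lower where called. Of 11 alpha-expansin genes, whose proteins loosen cell walls, 4 fell (median -0.32). EXPA10 (AT1G26770) stood at 21.7, 22.4 and 24.7 CPM in STM-GR DEX, at 50.7, 43.2 and 47.5 CPM in STM-GR mock, and at 54.1 and 60.1 CPM in wild type DEX (-1.32 ± 0.17, edgeR adjusted p = 2.28e-04). EXPA6 (-0.67 ± 0.11, edgeR adjusted p = 8.76e-04) fell in every alternative, and EXPA5 (-0.67 ± 0.15) and EXPA14 (-0.99 ± 0.23) lost their calls without wild type DEX replicate 1 (edgeR adjusted p = 0.169 and 0.238), which left 2. EXPA14 lost it without STM-GR DEX replicate 3 as well (edgeR adjusted p = 0.0577). In flavonoid synthesis 3 of 12 fell (median -0.45). They were TT7 (-1.13 ± 0.18, edgeR adjusted p = 0.00110), a hydroxylase gene of the pathway, and FLS1 (-1.01 ± 0.20, edgeR adjusted p = 0.00439), of flavonol synthesis. The flavonol regulator MYB111 (-0.70 ± 0.15, edgeR adjusted p = 0.00908) was the third. FLS1 was not called without wild type DEX replicate 1 (edgeR adjusted p = 0.0762), nor MYB111 without wild type DEX replicate 2 (edgeR adjusted p = 0.111). The anthocyanin regulator PAP2 was called higher at under 1 CPM (2.59 ± 0.73, edgeR adjusted p = 0.0337), a call lost without STM-GR DEX replicate 2 or 3 or either wild type DEX library (edgeR adjusted p of 0.0615 to 0.304), while PAP1 (0.47 ± 0.36) was not called.

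In lignin synthesis 3 of 15 were lower and 1 higher (median -0.22). FAH1 (AT4G36220), whose hydroxylase leads to syringyl lignin, stood at 40.1, 46.4 and 48.9 CPM in STM-GR DEX, at 24.9, 19.7 and 23.5 CPM in STM-GR mock, and at 22.7 and 24.3 CPM in wild type DEX (0.94 ± 0.16, edgeR adjusted p = 0.00170). OMT1 (-0.61 ± 0.13), the methyltransferase gene of the same branch, 4CL3 (-0.55 ± 0.11) and CYP98A3 (-0.27 ± 0.08) were lower, and none of the 3 without wild type DEX replicate 1 (edgeR adjusted p = 0.0931, 0.0857 and 0.141). CYP98A3 was not called without STM-GR DEX replicate 2 or 3 or wild type DEX replicate 2 either (edgeR adjusted p = 0.145, 0.122 and 0.245). Of 12 aliphatic glucosinolate genes 0 were called by edgeR and 1 had an unadjusted p under 0.05 (median -0.22). In the cell cycle list 2 of 18 were lower and 1 higher (median -0.03), beside 5.92% lower and 4.92% higher over all genes tested. CYCD3;1 (-0.41 ± 0.06, edgeR adjusted p = 8.28e-04), a cyclin gene that cytokinin induces, was at 46.7, 46.0 and 44.7 CPM in STM-GR DEX, 56.9, 54.5 and 57.6 CPM in STM-GR mock and 62.5 and 59.1 CPM in wild type DEX. KRP3 (-0.73 ± 0.17), an inhibitor gene of cyclin-dependent kinases, was the other, called neither without STM-GR DEX replicate 2 nor without wild type DEX replicate 2 (edgeR adjusted p = 0.0539 and 0.168), and CYCD1;1 (0.26 ± 0.08, edgeR adjusted p = 0.0469) was not called without any 1 of the 5 libraries (edgeR adjusted p of 0.0565 to 0.259). The mitotic cyclin genes CYCB1;1 (-0.01 ± 0.11) and CYCB1;2 (-0.05 ± 0.08) were not called.

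Handling and stress lists each had 1 called member in the fit of 15 libraries, and more in fits of fewer libraries. It was higher in each list, CBF2 of 13 touch and cold genes (1.21 ± 0.33, median 0.14), HSP70 of 9 heat shock genes (0.59 ± 0.18, median 0.41) and EXL2 of 10 sugar starvation genes (0.94 ± 0.15, median 0.30). EXL2 (AT5G64260) stood at 533, 497 and 535 CPM in STM-GR DEX, at 268, 321 and 279 CPM in STM-GR mock, and at 268 and 278 CPM in wild type DEX (edgeR adjusted p = 0.00106) and kept its call in every alternative. HSP70 lost its call without any 1 of the 5 libraries (edgeR adjusted p of 0.0647 to 0.382), and CBF2 without STM-GR DEX replicate 2 or 3 or wild type DEX replicate 1 or 2 (edgeR adjusted p of 0.0638 to 0.221). ASN1 (0.11 ± 0.15), a marker of sugar starvation, was not called. The share called higher over all genes tested was 4.92%, beside the 1 member in each of these lists. With only the 8 sprayed libraries in the fit, 2 touch and cold genes were higher and 2 lower, 3 heat shock genes were higher and 3 sugar starvation genes were higher, and with only the 5 libraries compared these counts were 2 and 2, 3 and 4.

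Markers of other cell types that the tissue could hold were mostly not called. Of 14 photosynthesis genes, 9 mature pollen genes, 13 tapetum and pollen wall genes, 13 xylem and phloem genes and 4 ovule and seed coat genes, 0 were called by edgeR, while 2, 0, 0, 2 and 0 of them had an unadjusted p under 0.05. With only the 8 sprayed libraries in the fit 2 photosynthesis genes were higher, and 1 xylem and phloem gene was higher and 1 lower. The medians of the 5 lists were 0.02, -0.0041, -0.03, 0.02 and 0.16 in that order. Summed over the list, photosynthesis genes came to 22125 to 24567 CPM in STM-GR DEX and to 22899 and 23292 CPM in wild type DEX. Mature pollen genes came to 1785 to 2131 CPM in STM-GR DEX and to 1774 and 1904 CPM in wild type DEX. Tapetum and pollen wall genes came to 1287 to 1364 CPM in STM-GR DEX and to 1217 and 1442 CPM in wild type DEX. Markers of green tissue and of anthers were thus present in both groups, which overlapped in each of these sums. Xylem and phloem genes came to 508 to 597 CPM in STM-GR DEX and to 547 and 549 CPM in wild type DEX, and ovule and seed coat genes to 91.8 to 103 CPM in STM-GR DEX and to 101 and 106 CPM in wild type DEX. Of 6 trichome genes GL3 was called higher (1.23 ± 0.30, edgeR adjusted p = 0.0163), though not without STM-GR DEX replicate 2 or wild type DEX replicate 1 or 2 (edgeR adjusted p = 0.0526, 0.128 and 0.131), and GL2 (-0.38 ± 0.17) was not called. The called member of 5 root genes was AIL6, also known as PLT3 and counted above among the AINTEGUMENTA-like genes.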

How the data were processed

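RNA-seq libraries of inflorescence meristem tissue were grouped by the genotype and treatment in their labels. The authors deposited raw counts per gene, and the submitters' processing notes name TopHat2 2.0.6, HTSeq 0.62, DESeq2 and the TAIR10 build. Whether strand was used in counting is not given in the sources used here, so overlapping and near-identical genes are less certain. The deposited table of normalized signal equals the counts divided by a size factor per library, as checked, and served only as an alternative. The 5 entries naming no gene (5.72% to 6.56% of the 5 libraries compared) were left out.

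Tests ran in edgeR 4.0.16 under R 4.3.3 as 1 fit of all 15 libraries in 6 groups, with filterByExpr at a minimum count of 10, TMM scaling, quasi-likelihood F tests and Benjamini-Hochberg adjustment over the 21716 genes tested. The 15 libraries held 18717248 to 26539358 gene counts, and the biological coefficient of variation was 9.85%. CPM use TMM library sizes. The SE is the log2 fold change over the square root of F. Log2 CPM use a prior count of 2. Replicates differed by more than sampling noise (chi-square per gene of 4.71 to 7.73 in STM-GR DEX and 3.77 in wild type DEX), so none was counted as a duplicate. The code was tested on simulated data.

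Alternatives were other normalizations and count filters, DESeq2 1.42.0, limma 3.58.1 with voom or on log2 of the deposited signal plus 1, fits of fewer libraries, leaving out each library, and a replicate block. Gene symbols, gene starts and upstream sequences came from RefSeq's TAIR10.1. The genes named were STM, KNAT1, KNAT2, KNAT6, AP1, LFY, UFO and CUC1, the 10 strongest called each way with a symbol, an average log2 CPM of at least 1 and no overlap between the groups, up to 4 called members of each of 37 lists, and, under the same filters as the 10 strongest, the 3 strongest also at least 2-fold apart between STM-GR mock and wild type DEX in the same direction (OCT6, STM and MUB5, with 0 lower). Members named as not called, and a few called ones beyond these 4 (HB-8, PHV, PHB, YAB2, YAB5, LSH3, HAM2, LMI1, CCA1, OPR3, AOC2, AUX1, LAX3 and ABCB19), were named after their values were seen. So were JAZ1, JAZ2, JAZ5 and JAZ6. Some genes that this rule would name are not reported here. Lists and members were chosen with earlier results of these data known, and lists are described by counts and medians.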

Additional observations from a re-analysis of the deposited data

How the results depend on the processing

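All 4 counts of the comparison stayed within 1.5 times of the reported ones with DESeq2's size factors, upper-quartile scaling, no filter, a minimum count of 50, DESeq2, limma-voom and the deposited signal, at 951 to 1128 genes higher and 1286 to 1464 lower. With only the 8 sprayed libraries in the fit 2189 genes were higher and 2532 lower, and with only the 5 libraries compared 2192 and 2394, while those of at least 2-fold numbered 244 and 214, and 244 and 208. Leaving out 1 library gave 298 to 765 genes higher, 416 to 966 lower, 121 to 233 higher by at least 2-fold and 129 to 190 lower by at least 2-fold. The lowest of each came without wild type DEX replicate 1, which leaves a lone wild-type library assumed to vary like the other groups. The cause of these shifts was not tested. Between STM-GR mock and wild type DEX, alternatives chosen after seeing the data gave 28 higher and 37 lower with the 8 sprayed libraries, 27 and 29 with DESeq2, and 1 to 6 and 0 to 3 when 1 library was left out.

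Replicate numbers in the titles and in the descriptions differ for wild type DEX, and by neither did same-numbered libraries deviate together (correlations of 0.0517 and -0.00892 by title, 0.00892 and 0.0589 by description). A replicate block gave 1053 higher and 1254 lower by title, 939 and 1130 by description, and 218 and 215, and 233 and 193, of at least 2-fold. Of 119 called genes followed singly, 58 kept their call in all 16 alternatives, 61 lost it in at least 1, and 0 changed sign. Leaving out a library was not the only cause of a lost call. GA20OX1, LMI1, PAP2 and TCP17 lost theirs with limma-voom, and TCP17 with DESeq2 as well. CBF2 and HSP70 lost theirs on the deposited signal, and CYCD1;1 and HSP70 with upper-quartile scaling. CYCD1;1, HAM2 and PHB lost theirs with no filter, and some calls were lost with a replicate block. Of 74 list counts (37 lists in each direction), 37 were larger and 0 smaller with the 8 sprayed libraries, and 34 were larger and 1 smaller with the 5 libraries compared. With the 8 sprayed libraries, members higher were 4 against 2 as reported in the stem cell and carpel lists, 3 against 1 in the early auxin, heat shock and sugar starvation lists, 2 against 1 in the gibberellin oxidase, cell cycle and touch and cold lists, and 2 against 0 in the gibberellin signalling and photosynthesis lists. Members lower were 8 against 3 in the lignin list, 5 against 3 in the stem cell and flavonoid lists, 4 against 2 in gibberellin signalling, 3 against 0 in the glucosinolate list, 2 against 0 in the touch and cold list and 2 against 1 in the floral meristem list. A count of 1 against 0 was found for members higher in the flowering time, floral organ, type-A response regulator, jasmonate and xylem lists, and for members lower in the flowering time, carpel, early auxin, auxin synthesis and xylem lists.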

Other observations

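The 7 genes called between STM-GR mock and wild type DEX were STM, MUB5, AT1G22160, OLEO4, AT1G62305, FKF1 and PRR5, named here after their values were seen. Of the 7, 5 lie on chromosome 1, a count that was not set against the share of all genes there. The 5 include STM, whose counts include the transgene. They also include FKF1, which was not called between STM-GR DEX and wild type DEX (-0.10 ± 0.08). AT1G22160 stood at 95.2, 96.5 and 90.3 CPM in STM-GR DEX, at 37.0, 41.9 and 38.7 CPM in STM-GR mock, and at 21.9 and 22.5 CPM in wild type DEX, so that mock lay between the other groups (log2 fold change of STM-GR DEX over wild type DEX 2.08 ± 0.10, edgeR adjusted p = 1.91e-08). OLEO4, a gene for an oleosin of oil bodies, stood at 13.1, 13.6 and 13.9 CPM in STM-GR DEX, at 11.3, 10.1 and 11.3 CPM in STM-GR mock, and at 5.84 and 6.26 CPM in wild type DEX (1.16 ± 0.13, edgeR adjusted p = 5.03e-05). Both transgenic groups were high for OLEO4. The evening clock genes FKF1 and PRR5 were lower in the mock libraries than in either DEX-sprayed group, which overlapped for PRR5. FKF1 stood at 53.9, 58.9 and 59.8 CPM in STM-GR DEX, at 40.5, 41.8 and 39.1 CPM in STM-GR mock, and at 61.5 and 62.2 CPM in wild type DEX, and PRR5 at 76.5, 87.3 and 88.8, at 59.3, 62.9 and 57.7, and at 83.4 and 91.7 CPM in the same order.

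Near STM in the gene table, AT1G62305, 8 genes away, stood at 17.6, 16.5 and 16.4 CPM in STM-GR DEX, at 16.5, 17.0 and 15.9 CPM in STM-GR mock, and at 23.9 and 25.6 CPM in wild type DEX, so both transgenic groups lay below wild type (-0.56 ± 0.08, edgeR adjusted p = 2.79e-04). Whether the place of the transgene moves with any of these values was not tested.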
